A study of Mus musculus with 9 samples.

Results

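Glycolysis turns glucose into pyruvate in the cytosol, and lactate is made from that pyruvate and carried across the plasma membrane. The genes described here are 42 genes of this route in the mouse, namely glucose transporters, the enzymes from hexokinase to pyruvate kinase with their regulators, lactate dehydrogenases, lactate transporters with their partner proteins, and the glycerol phosphate dehydrogenases that branch off the route. They were picked by name for their place in the route, at a time when earlier results of these data were known. All 42 were found in the table of 52248 named entries, and 36 of them reached a mean of 1 CPM (CPM being read counts scaled to the library total) over the 9 libraries and were tested, among 12396 such genes.

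The RNA came from organoids grown from basal cells of the prostates of mice with floxed Mpc1 alleles, a genotype that all 9 libraries shared. Mpc1 codes for a subunit of the carrier through which pyruvate enters mitochondria. The Mpc1-KO group (3 libraries) carried the Cre recombinase that excises the floxed part of Mpc1. The UK5099 group (3 libraries) was treated with the carrier inhibitor UK5099 at 10 µM for 1 week and is named only by the drug in the labels. The vehicle group (3 libraries) carried red fluorescent protein (RFP) without Cre and received vehicle. Per the methods of the study, lentivirus brought in either RFP alone or Cre together with RFP, and cells positive for RFP were sorted after 1 week of culture. The labels name no virus for the UK5099 libraries. Whether the 3 libraries of a group stand for different cultures or animals is not told by the labels, so that p-values measure only the spread between these libraries, which may be technical. The comparisons address how these transcripts stood when the pyruvate carrier was deleted or inhibited.

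Glucose enters cells through carriers of the SLC2 family and is trapped by hexokinases as glucose 6-phosphate. Phosphofructokinase commits the sugar to glycolysis, and its activator fructose 2,6-bisphosphate is set by the bifunctional PFKFB enzymes. Lactate dehydrogenase A and B convert pyruvate and lactate into each other. Lactate leaves or enters the cell with a proton through monocarboxylate transporters of the SLC16 family, which need basigin or embigin to reach the plasma membrane. Many genes of the pathway are known targets of the hypoxia-inducible factors and of Myc, which bind DNA around the letters ACGTG and CACGTG.

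Sequences upstream of 4 genes that passed in a comparison below are printed as examples, and they do not stand for all members that passed. Slc16a1 passed the test in Mpc1-KO organoids, Hk2 and Pfkfb3 were higher in Mpc1-KO than in UK5099 organoids, and Gpd2 was lower in Mpc1-KO than in UK5099 with the smallest p of the members. Each is the 250 bases before the start of the gene, 5′ to 3′ on the strand of the gene, from RefSeq (GRCm38.p6), and it is the window lying farthest 5′ where a gene has several. Capitals mark ACGTG or its reverse complement CACGT, and CACGTG where both overlap.
Slc16a1: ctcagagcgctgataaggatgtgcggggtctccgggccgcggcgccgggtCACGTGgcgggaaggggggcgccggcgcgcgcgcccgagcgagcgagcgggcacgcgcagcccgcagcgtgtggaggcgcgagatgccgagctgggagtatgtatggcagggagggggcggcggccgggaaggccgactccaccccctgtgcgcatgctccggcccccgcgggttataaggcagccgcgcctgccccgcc
Hk2: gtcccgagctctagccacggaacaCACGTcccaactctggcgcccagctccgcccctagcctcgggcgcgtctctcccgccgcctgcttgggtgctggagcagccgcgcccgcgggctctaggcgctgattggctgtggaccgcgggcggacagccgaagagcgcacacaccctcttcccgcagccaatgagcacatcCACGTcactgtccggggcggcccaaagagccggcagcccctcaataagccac
Pfkfb3: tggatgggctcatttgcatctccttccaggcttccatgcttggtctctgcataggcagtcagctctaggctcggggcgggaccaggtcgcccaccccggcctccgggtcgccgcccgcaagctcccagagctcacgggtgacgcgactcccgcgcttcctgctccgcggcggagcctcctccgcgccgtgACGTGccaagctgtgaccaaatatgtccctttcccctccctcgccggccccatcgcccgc
Gpd2: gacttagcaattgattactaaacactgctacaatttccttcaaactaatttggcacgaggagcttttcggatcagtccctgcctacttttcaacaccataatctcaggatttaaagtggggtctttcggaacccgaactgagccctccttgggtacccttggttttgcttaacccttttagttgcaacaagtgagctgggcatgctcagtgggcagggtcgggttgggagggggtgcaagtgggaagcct
The positions are chr3:104638414-104638663 on the plus strand for Slc16a1, chr6:82774455-82774704 on the minus strand for Hk2, chr2:11553930-11554179 on the minus strand for Pfkfb3 and chr2:57237428-57237677 on the plus strand for Gpd2. Counting both strands, so that 1 CACGTG counts as 2 matches, these stretches held 2 matches in Slc16a1, 2 in Hk2, 1 in Pfkfb3 and 0 in Gpd2. The matches did not follow the direction of change in other members. Emb and Gpi1, also higher in Mpc1-KO than in UK5099, held 0 in their 250 bases. Ldhd and Fbp2, lower there, held 2 each. Bsg and Slc16a7 had no window. Of the 42 genes, 38 had a promoter window in the RefSeq table. In windows of 300 bases (250 before and 50 after the start), ACGTG on either strand was found in 16 of the 33 tested members with a window (48.5%), against 25.9% of all genes tested and 19.6% of all genes with a window. For CACGTG the shares were 18.2% of members, 10.3% of genes tested and 7.24% of all genes with a window. A match is a description of the letters only.

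Depth, estimated from the CPM that 1 read is worth, ran from 16.5 to 28.7 M reads a library. Mpc1 itself stood at 0.522, 0.533 and 0.598 CPM in Mpc1-KO libraries, 2.04, 2.47 and 2.30 CPM in UK5099 libraries and 2.36, 2.41 and 2.38 CPM in vehicle libraries, and it fell in Mpc1-KO organoids (-1.46 on the log2 scale, adjusted p = 0.00067). Krt5 and Trp63, markers of basal cells, were present in every library (at least 1557 and 180.6 CPM), as were the luminal keratins Krt8 and Krt18 (at least 453 and 829.96 CPM). The 10 basal markers summed to 14826 to 15270.2 CPM in Mpc1-KO, 24239.5 to 27395.5 CPM in UK5099 and 15828 to 16285 CPM in vehicle libraries, and the 10 luminal markers to 11604 to 11789 CPM in Mpc1-KO, 9768 to 9919.6 CPM in UK5099 and 11900.5 to 12452 CPM in vehicle libraries. The 16 squamous markers summed to 1462 to 1712 CPM in Mpc1-KO, 6026 to 8583 CPM in UK5099 and 1150.5 to 1349.6 CPM in vehicle libraries. The 14 mesenchymal markers, nearly all of it fibronectin (Fn1), summed to 2741 to 3605 CPM in Mpc1-KO, 280.3 to 615 CPM in UK5099 and 6761 to 7946 CPM in vehicle libraries. The 14 proliferation genes summed to 803 to 816 CPM in Mpc1-KO, 672 to 893 CPM in UK5099 and 416 to 523 CPM in vehicle libraries. With UK5099, 15 of 15 tested squamous markers were higher and 6 of 7 mesenchymal ones lower than in vehicle organoids, and 13 of 14 proliferation genes were higher. In Mpc1-KO organoids 3 squamous markers were higher, 3 mesenchymal ones lower and 9 proliferation genes higher. Shares over all genes tested were 19.9% higher and 18.2% lower with UK5099, and 5.64% and 5.03% in Mpc1-KO. Immune (12), endothelial (8), neuroendocrine (8) and erythroid (6) markers each summed to at most 52.7 CPM in any library, and among them Cd3g, Adgre1, Tyrobp, Cdh5, Insm1 and the globins Hbb-bs, Hbb-bt, Hba-a1 and Hba-a2 were at 0 in every library. Only Cd68 (11.7 to 52.3 CPM), Ncam1 (6.78 to 41.1 CPM) and Esam (1.09 to 3.50 CPM) of these lists were tested. With UK5099, Cd68 (log2 fold change -1.15, adjusted p = 0.0078 by limma) and Ncam1 (-1.82, adjusted p = 9.2e-05) were lower than in vehicle organoids. Esam was higher (0.77, adjusted p = 0.048), and none of these genes passed for Mpc1-KO with vehicle. In bulk RNA, fewer cells of a type and less RNA per cell cannot be told apart, and the part of these shifts in the results below was not tested.

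The libraries of the UK5099 group were far less alike for these genes than those of the other groups. The median SD of the 36 members on the log2 scale was 0.05 in Mpc1-KO, 0.45 in UK5099 and 0.11 in vehicle libraries, against 0.06 in Mpc1-KO, 0.18 in UK5099 and 0.09 in vehicle libraries over all genes tested. UK5099 library 1 was the lowest of its group for 23 of 36 members (63.9%), against 25.4% of all genes, and lay off by a median of -0.39 on the log2 scale from the other 2 UK5099 libraries for members and by 0.13 for all genes. Vehicle library 1 was likewise the lowest of its group for 26 of 36 members (72.2%, against 31.7% of all genes), with a smaller median shift of -0.15. The counts below are therefore given with and without UK5099 library 1, and so are members for which it changes a call or a sign. UK5099 library 1 and vehicle library 1 deviated together from their group means (correlation 0.44). Vehicle library 1 stayed in the fits without UK5099 library 1, where it holds the vehicle mean down for most members. No fit left out both, so the changes of sign below hold only for leaving out UK5099 library 1 alone. Counts of alternatives given for single members leave out the stricter threshold of 0.01.

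**Figure D1:**
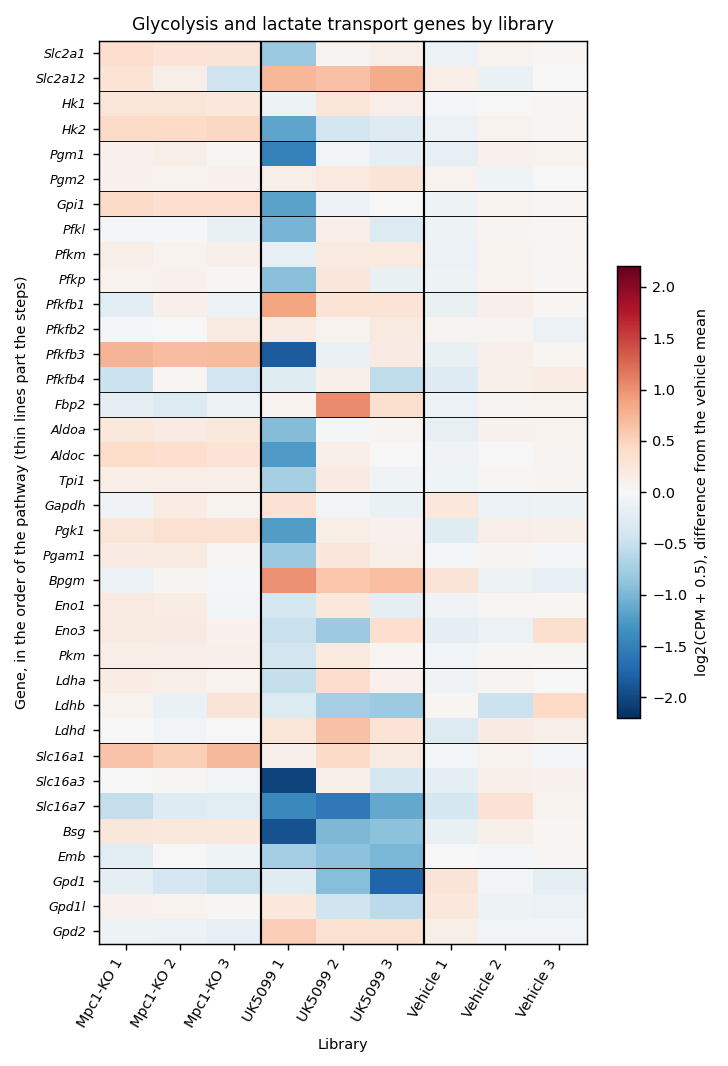
Heat map of the 36 tested genes (rows, in the order of the pathway) in the 9 libraries (columns, Mpc1-KO, UK5099 and vehicle from left to right), coloured by log2(CPM + 0.5) as the difference from the vehicle mean. UK5099 library 1 is the lowest of its group for 23 of the 36 genes, and the 3 Mpc1-KO columns are close to each other (median SD 0.05).

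In Mpc1-KO organoids the lactate carrier gene Slc16a1 rose, and most other members had small positive differences from vehicle that did not pass. In the test of all genes by limma, with an adjusted p below 0.05 as the threshold, 1 of 36 members (Slc16a1) was higher in Mpc1-KO than in vehicle organoids and 0 were lower, while 5.64% of all genes tested were higher and 5.03% lower (10.7% in either direction). At an unadjusted p below 0.05, 3 of the 36 members (Hk1, Hk2 and Slc16a1) and 27.5% of all genes were called. The log2 fold change was positive for 24 and negative for 12 members, with a median of 0.09 against -0.01 over all genes. The Mpc1-KO libraries lay entirely above the vehicle libraries for 13 members (24.2% of all genes) and entirely below for 1 member, Gpd2 (25.6% of all genes). The summed level of the 42 genes was 13370.2, 13171 and 13029 CPM in Mpc1-KO libraries, against 10565, 12019 and 11778 CPM in vehicle libraries.

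The count for Mpc1-KO organoids depended on which libraries shared the estimate of the spread. In a fit of the 6 Mpc1-KO and vehicle libraries alone, 13 members were higher (Slc2a1, Hk1, Hk2, Gpi1, Pfkfb3, Aldoa, Aldoc, Tpi1, Pgk1, Pkm, Ldha, Slc16a1 and Bsg) and 0 lower, while 17.5% of all genes were higher and 18.0% lower. In the fit of all libraries without UK5099 library 1, 10 were higher, namely these genes except Tpi1, Pkm and Ldha, against 14.1% of all genes, and 0 were lower, against 15.0%. Without UK5099 library 2, 2 were higher (Hk1 and Slc16a1), against 803 of 12362 genes, and 0 were lower, against 723. The fold changes between Mpc1-KO and vehicle are the same in these fits, and the estimate of the spread is what differs.

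UK5099 gave a mixed picture. Of 36 members, 5 were higher with UK5099 than in vehicle organoids (Slc2a12, Pgm2, Bpgm, Ldhd and Gpd2) and 5 lower (Hk2, Slc16a7, Bsg, Emb and Gpd1), while 19.9% of all genes tested were higher and 18.2% lower (38.1% in either direction). The log2 fold change was positive for 12 and negative for 24 members, with a median of -0.23 against 0.04 over all genes. The UK5099 libraries lay entirely above the vehicle libraries for 8 members (24.4% of all genes) and entirely below for 5 (21.3%). The summed level was 6195, 11065 and 10366 CPM in UK5099 libraries. Library 1 was far below the vehicle libraries (10565 to 12019 CPM), library 2 within their range and library 3 just under it.

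This median was negative in every fit that kept UK5099 library 1 and positive without it. Vehicle library 1, low for most members, was kept in that fit. Without UK5099 library 1, 11 members were higher (the 5 above with Hk1, Pfkm, Fbp2, Pgam1, Ldha and Slc16a1) and 7 lower (the 5 above with Ldhb and Gpd1l), against 21.2% and 24.7% of all genes, and the median was 0.05 against -0.02 over all genes. Without UK5099 library 2 there were 3 higher and 8 lower of 35 tested, with Pfkl, Pfkp, Eno1 and Slc16a3 among the lower. In that fit 2209 of 12362 genes were higher and 1988 lower. Without vehicle library 2 there were 3 and 4, against 1724 and 1708 of 12392 genes. Without vehicle library 3 there were 3 and 3, against 1747 and 1703 of 12377 genes. In a fit of the 6 UK5099 and vehicle libraries alone there were 3 higher (Slc2a12, Bpgm and Gpd2) and 3 lower (Slc16a7, Bsg and Emb), against 14.2% and 13.8% of all genes. These 6 genes passed in each fit named in this paragraph, except that Slc2a12 did not pass without vehicle library 2 (adjusted p = 0.054).

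**Figure D2:**
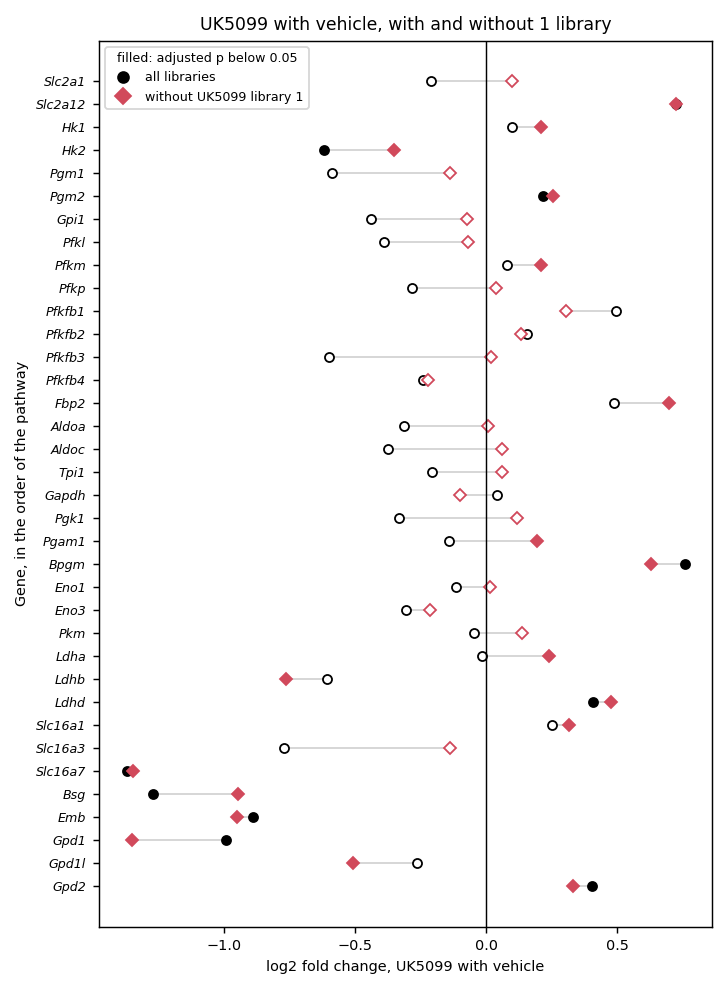
Log2 fold change of the 36 genes (rows) between UK5099 and vehicle organoids with all libraries (black circles) and without UK5099 library 1 (red diamonds), where filled symbols have an adjusted p below 0.05 by limma. Filled symbols number 10 with all libraries and 18 without library 1, and Slc16a3, Pfkfb3 and Pgk1 are among the genes that lie nearer to 0 or beyond it without library 1.

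Set against each other, the groups differed for 14 members. Mpc1-KO was higher than UK5099 for 8 (Hk2, Gpi1, Pfkfb3, Ldhb, Slc16a1, Slc16a7, Bsg and Emb) and lower for 6 (Slc2a12, Pfkfb1, Fbp2, Bpgm, Ldhd and Gpd2), while 21.1% of all genes were higher and 23.2% lower (44.4% in either direction). Of the lower members, Fbp2 reached the mean of 1 CPM only through the UK5099 group. The median log2 fold change was 0.34 against -0.05 over all genes. Mpc1-KO libraries lay entirely above UK5099 libraries for 13 members (25.2% of all genes) and entirely below for 7 (29.8%). Without UK5099 library 1 there were 14 higher and 6 lower members (26.4% and 23.1% of all genes) with a median of 0.11. Without UK5099 library 2 there were 16 and 4 of 35 tested, against 2289 and 2567 of 12362 genes. Without Mpc1-KO library 1, 2 or 3 there were 5 higher each time (Hk2, Slc16a1, Slc16a7, Bsg and Emb) and 3, 4 and 3 lower. Calls fell over all genes too, to 1996, 2001 and 1977 higher and 2121, 2100 and 2031 lower, against 2620 and 2878 with all libraries. The 3 comparisons share libraries, so that their fold changes are not independent of each other.

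**Figure D3:**
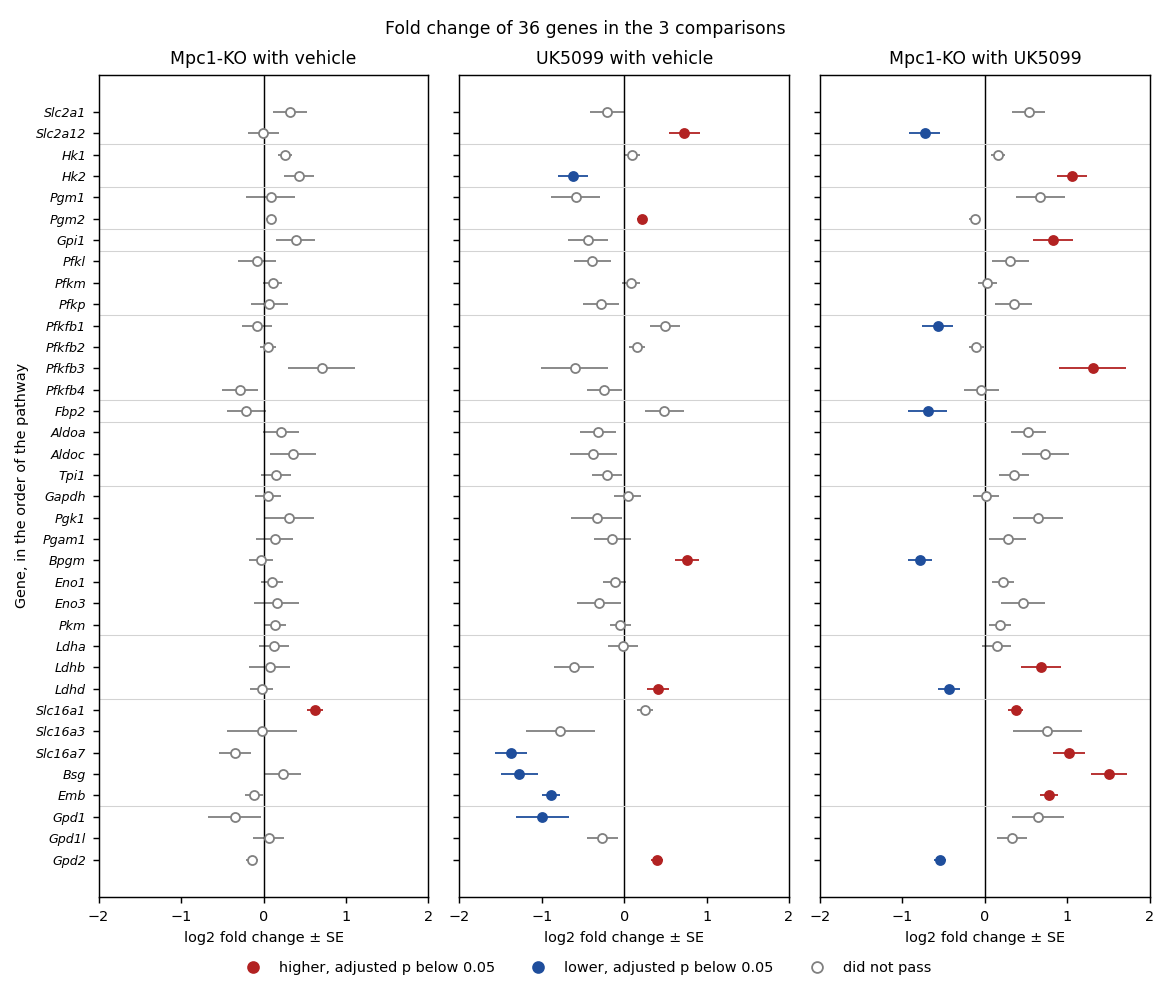
Log2 fold change ± SE of the 36 genes (rows, in the order of the pathway) in the 3 comparisons (panels), from limma on all 9 libraries, with genes that passed filled in red (higher) or blue (lower). In the Mpc1-KO with vehicle panel 1 gene is filled, in the UK5099 with vehicle panel 10 and in the Mpc1-KO with UK5099 panel 14.

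Among the glucose carriers, Slc2a12 (GLUT12) rose with UK5099 and Slc2a1 (GLUT1) did not pass in the 9-library fit. Slc2a12 stood at 4.60, 4.0 and 2.53 CPM in Mpc1-KO, 6.33, 5.94 and 6.73 CPM in UK5099 and 4.08, 3.25 and 3.60 CPM in vehicle libraries. Every UK5099 library was above every other library, while Mpc1-KO and vehicle libraries overlapped. Its estimated log2 fold change was 0.73 ± 0.19 (SE) for UK5099 with vehicle (adjusted p = 0.013) and -0.73 for Mpc1-KO with UK5099 (adjusted p = 0.011). Slc2a1 stood at 631, 604 and 592 CPM in Mpc1-KO, 275, 507 and 536 CPM in UK5099 and 447, 517 and 501 CPM in vehicle libraries. All Mpc1-KO libraries were above all others, and UK5099 library 1 was below all others. Its log2 fold change was 0.32 ± 0.20 for Mpc1-KO with vehicle (adjusted p = 0.34), which passed in the 6-library fit (adjusted p = 0.0012) and without UK5099 library 1 (adjusted p = 0.0021). For UK5099 with vehicle it was -0.21 (adjusted p = 0.45) and turned to 0.10 without UK5099 library 1 (adjusted p = 0.24), and for Mpc1-KO with UK5099 it was 0.53 (adjusted p = 0.059) and 0.22 without that library (adjusted p = 0.013).

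Hk2, the inducible hexokinase that binds mitochondria, separated all 3 groups. It stood at 724, 732 and 739.8 CPM in Mpc1-KO, 243, 404 and 446 CPM in UK5099 and 497, 574 and 556 CPM in vehicle libraries. No 2 groups overlapped, with Mpc1-KO at the top and UK5099 at the bottom. Hk2 fell with UK5099 (log2 fold change -0.62 ± 0.18, adjusted p = 0.023, and -0.35 with adjusted p = 0.0010 without UK5099 library 1), a call that was lost without vehicle library 2 (adjusted p = 0.077), without vehicle library 3 (adjusted p = 0.069) and in the 6-library fit (adjusted p = 0.062). The difference of Mpc1-KO from UK5099 was 1.05 ± 0.18 on the log2 scale (adjusted p = 0.0014), while the difference from vehicle was 0.43 (adjusted p = 0.16, and adjusted p = 0.00017 in the 6-library fit). Hk1, the widely expressed hexokinase, had a log2 fold change of 0.25 for Mpc1-KO with vehicle (adjusted p = 0.088) and 0.10 for UK5099 with vehicle (adjusted p = 0.39, or 0.21 with adjusted p = 0.0042 without UK5099 library 1). The log2 ratio of Hk2 to Hk1 was 0.32, 0.35 and 0.39 in Mpc1-KO, -0.86, -0.51 and -0.25 in UK5099 and 0.09, 0.25 and 0.19 in vehicle libraries. The ratio thus had no overlap between groups either, and UK5099 was the group in which it was negative.

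Gpi1, the isomerase that makes fructose 6-phosphate, stood at 1178, 1135 and 1132 CPM in Mpc1-KO, 389.6, 801 and 867 CPM in UK5099 and 810.4, 921 and 903 CPM in vehicle libraries. Mpc1-KO libraries were above all others, and UK5099 library 1 was far below the rest. Mpc1-KO was higher than UK5099 by 0.83 ± 0.24 on the log2 scale (adjusted p = 0.019), or 0.46 without UK5099 library 1 (adjusted p = 0.00012), and the call was lost when any single Mpc1-KO library was left out (adjusted p 0.052 to 0.057 by limma). The phosphoglucomutase family gene Pgm2, whose family links glucose 1-phosphate and glucose 6-phosphate, rose by a small amount with UK5099, at 65.7, 64.8 and 66.0 CPM in Mpc1-KO, 67.6, 71.7 and 75.3 CPM in UK5099 and 65.2, 57.6 and 61.8 CPM in vehicle libraries. The UK5099 libraries were all above the others with little spread. The log2 fold change of Pgm2 for UK5099 with vehicle was 0.22 ± 0.06 (adjusted p = 0.023), and the call was lost in 8 of 19 alternatives, among them both other scalings of the libraries and the fits without UK5099 library 2 or 3 or vehicle library 2 or 3 (highest adjusted p 0.11). Pgm1 did not pass in the 9-library fit, with 86.8, 233 and 209.9 CPM in UK5099 libraries against 216, 261 and 258 CPM in vehicle libraries. For Mpc1-KO with UK5099 its log2 fold change was 0.67 (adjusted p = 0.090), or 0.22 without UK5099 library 1 (adjusted p = 0.037), and that of Pgm2 was -0.12 (adjusted p = 0.14), or -0.16 without it (adjusted p = 0.039).

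No phosphofructokinase-1 gene (Pfkl, Pfkm, Pfkp) passed in the 9-library fit, with log2 fold changes between -0.08 and 0.11 for Mpc1-KO with vehicle and between -0.39 and 0.08 for UK5099 with vehicle. The second range shifted without UK5099 library 1, to -0.07 for Pfkl (adjusted p = 0.62), 0.04 for Pfkp (adjusted p = 0.80) and 0.21 for Pfkm, now passing (adjusted p = 0.044). For Mpc1-KO with UK5099, Pfkl was 0.31 and Pfkm 0.03, and without that library -0.01 and -0.10. Pfkp, the platelet-type form, stood at 325, 330.3 and 317 CPM in Mpc1-KO, 163, 366 and 275 CPM in UK5099 and 286, 328 and 315 CPM in vehicle libraries. UK5099 library 1 was the lowest of all libraries and UK5099 library 2 the highest, so that the group spanned the others. The log2 ratio of Pfkp to Pfkl, which came from the same libraries, was steady within groups, at -0.15 ± 0.04 in Mpc1-KO, -0.19 ± 0.02 in UK5099 and -0.30 ± 0.02 in vehicle libraries (SD, n = 3 each). Of the transcript windows of Pfkp, 15.4% overlapped another gene, Pitrm1.

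Of the 4 PFKFB genes, which make and remove fructose 2,6-bisphosphate, Pfkfb3 and Pfkfb1 differed between Mpc1-KO and UK5099 in opposite directions. Pfkfb3, the form with the highest kinase activity, stood at 193, 183 and 184 CPM in Mpc1-KO, 31.6, 103 and 130.01 CPM in UK5099 and 102, 124 and 118 CPM in vehicle libraries. The Mpc1-KO libraries were well above all others and UK5099 library 1 well below, while UK5099 libraries 2 and 3 lay around vehicle. Pfkfb3 was higher in Mpc1-KO than in UK5099 by 1.31 ± 0.40 on the log2 scale (adjusted p = 0.025) and by 0.69 without UK5099 library 1 (adjusted p = 0.00017). The call was lost without any single Mpc1-KO library (adjusted p 0.064 to 0.069) and in the 6-library fit (adjusted p = 0.055). For Mpc1-KO with vehicle the log2 fold change was 0.71 ± 0.40 (adjusted p = 0.29, but adjusted p = 4.2e-05 in the 6-library fit and adjusted p = 0.00029 without UK5099 library 1). For UK5099 with vehicle it was -0.60 (adjusted p = 0.27), and 0.02 without UK5099 library 1 (adjusted p = 0.90).

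Pfkfb1, a form of liver and muscle, was low, at 2.44, 3.24 and 2.67 CPM in Mpc1-KO, 5.81, 3.77 and 3.76 CPM in UK5099 and 2.58, 3.25 and 3.05 CPM in vehicle libraries. UK5099 libraries were above all others, with library 1 the highest. Mpc1-KO was lower than UK5099 (log2 fold change -0.57 ± 0.18, adjusted p = 0.030), a call lost without UK5099 library 1 (adjusted p = 0.061), without Mpc1-KO library 1 or 3 (adjusted p = 0.10 and 0.087) and in the 6-library fit (adjusted p = 0.059). Pfkfb2 and Pfkfb4 did not pass, with log2 fold changes of 0.05 and -0.28 for Mpc1-KO with vehicle and 0.16 and -0.24 for UK5099 with vehicle. Fbp2, the muscle form of fructose-1,6-bisphosphatase, which runs the phosphofructokinase step backwards, stood at 0.731, 0.667 and 0.827 CPM in Mpc1-KO, 1.00, 2.44 and 1.33 CPM in UK5099 and 0.816, 0.985 and 1.00 CPM in vehicle libraries. UK5099 library 2 was the highest, and all Mpc1-KO libraries were under all UK5099 libraries. Fbp2 was lower in Mpc1-KO than in UK5099 organoids (log2 fold change -0.70 ± 0.23, adjusted p = 0.035). It passed in 8 of 16 alternatives, failing without Mpc1-KO library 1, 2 or 3 or vehicle library 2 or 3 (highest adjusted p 0.10). Fbp2 reached the mean of 1 CPM only through the UK5099 group (mean 1.59 CPM, against 0.74 in Mpc1-KO and 0.93 in vehicle libraries). Its differences from the UK5099 group are therefore tied to the filter and are given as a description only. Without UK5099 library 2 it was not tested. For UK5099 with vehicle Fbp2 stood at 0.49 (adjusted p = 0.13), or 0.70 without UK5099 library 1 (adjusted p = 0.022).

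None of the aldolase and triose phosphate isomerase genes, which split and interconvert the 3-carbon sugars, passed in the 9-library fit. Their log2 fold changes were 0.15 to 0.36 for Mpc1-KO with vehicle, -0.37 to -0.21 for UK5099 with vehicle and 0.35 to 0.73 for Mpc1-KO with UK5099. Without UK5099 library 1 the values for UK5099 with vehicle were no longer negative, at 0.01 for Aldoa, 0.06 for Aldoc and 0.06 for Tpi1. For Mpc1-KO with UK5099 they shrank to 0.21 for Aldoa (adjusted p = 0.044), 0.30 for Aldoc (adjusted p = 0.00084) and 0.09 for Tpi1 (adjusted p = 0.34), with Aldoa and Aldoc passing. Aldoc stood at 169, 165 and 158 CPM in Mpc1-KO, 53.7, 137 and 129 CPM in UK5099 and 122, 129 and 133 CPM in vehicle libraries. Mpc1-KO libraries were above all others and UK5099 library 1 was below all others, and in the 6-library fit with vehicle the Mpc1-KO group passed (adjusted p = 0.00019). Aldoa did so too (adjusted p = 0.027), with 1566, 1503 and 1563 CPM in Mpc1-KO against 1181, 1421 and 1403 CPM in vehicle libraries, and Tpi1 likewise (adjusted p = 0.022).

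Lower glycolysis, from Gapdh to pyruvate kinase, held 1 gene that passed. Bpgm, which makes 2,3-bisphosphoglycerate in a side branch, rose with UK5099 and stood at 15.2, 17.4 and 16.3 CPM in Mpc1-KO, 34.2, 25.6 and 26.5 CPM in UK5099 and 20.4, 15.4 and 14.7 CPM in vehicle libraries. All UK5099 libraries were above all others, with library 1 the highest, and Mpc1-KO overlapped vehicle. On the log2 scale the difference was 0.76 ± 0.14 for UK5099 with vehicle (adjusted p = 0.0024) and -0.79 ± 0.14 for Mpc1-KO with UK5099 (adjusted p = 0.0019), and both calls held in every alternative run (19 and 18). Pkm, the pyruvate kinase of most tissues, stood at 1689, 1672 and 1650.2 CPM in Mpc1-KO, 1143, 1770.0 and 1573 CPM in UK5099 and 1457, 1548 and 1552 CPM in vehicle libraries. UK5099 spanned both other groups, and Mpc1-KO libraries were slightly above vehicle without overlap. The log2 fold change of Pkm was 0.14 ± 0.13 for Mpc1-KO with vehicle (adjusted p = 0.54, or adjusted p = 0.023 in the 6-library fit) and -0.05 ± 0.13 for UK5099 with vehicle (adjusted p = 0.81). Without UK5099 library 1 the sign with UK5099 turned, to 0.14 (adjusted p = 0.087), and Mpc1-KO with UK5099 moved to 0.00, against 0.18 with all libraries.

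The levels of several genes here are uncertain because their sequence recurs elsewhere. In 50-base windows of their GENCODE M21 transcripts, the read length of this experiment, 58.4% of Gapdh windows, 68.0% of Pgk1, 49.5% of Eno1, 41.5% of Pgam1 and 23.7% of Pkm were also found in other genes, among them 215 pseudogenes for Gapdh. Earlier and later steps had such genes too, with 24.5% of windows for Gpi1, 25.0% for Pfkfb2 and 21.0% for Ldhb. Gapdh, usually among the most abundant transcripts of a cell, had only 4.61 to 6.54 CPM over the 9 libraries. The sources used here do not state the treatment of reads with several matches. Gapdh, Pgk1, Pgam1, Eno1 and Eno3 did not pass in the 9-library fit, with log2 fold changes from 0.05 to 0.31 for Mpc1-KO with vehicle and from -0.33 to 0.04 for UK5099 with vehicle. Without UK5099 library 1, UK5099 with vehicle turned to 0.12 for Pgk1 (adjusted p = 0.42), 0.19 for Pgam1 (adjusted p = 0.045), 0.02 for Eno1 (adjusted p = 0.92) and -0.10 for Gapdh (adjusted p = 0.61), while Eno3 stood at -0.21. For Mpc1-KO with UK5099, Pgam1 was 0.28, or -0.06 without that library.

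Ldha, the main lactate-forming dehydrogenase, did not pass in the 9-library fit. It stood at 1229.8, 1208 and 1168 CPM in Mpc1-KO, 765, 1441 and 1173 CPM in UK5099 and 1045, 1151 and 1108 CPM in vehicle libraries. Mpc1-KO libraries were above vehicle without overlap, and the UK5099 group held both the lowest and the highest of all libraries. The log2 fold change was 0.13 ± 0.18 for Mpc1-KO with vehicle (adjusted p = 0.69, or adjusted p = 0.047 in the 6-library fit) and -0.01 ± 0.18 for UK5099 with vehicle (adjusted p = 0.96). Without UK5099 library 1 the sign of the second turned, to 0.24 (adjusted p = 0.027), and Mpc1-KO with UK5099 was -0.11, against 0.14 with all libraries (without library 1, adjusted p = 0.26). Of its windows, 10.4% recur in other genes, among them 14 pseudogenes.

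Ldhb, the form that favours pyruvate formation, was near the lower limit, at 2.44, 2.00 and 2.90 CPM in Mpc1-KO, 1.76, 1.18 and 1.09 CPM in UK5099 and 2.36, 1.496 and 3.26 CPM in vehicle libraries. Mpc1-KO libraries were above UK5099 libraries, and vehicle overlapped both. Ldhb was higher in Mpc1-KO than in UK5099 by 0.68 ± 0.25 on the log2 scale (adjusted p = 0.046), a call held in 9 of 17 alternatives and lost without any single Mpc1-KO library, without UK5099 library 2 or 3 and without vehicle library 1 (highest adjusted p 0.15). For UK5099 with vehicle it was -0.61 (adjusted p = 0.078), or -0.76 without UK5099 library 1 (adjusted p = 0.025). The log2 ratio of Ldha to Ldhb was 8.69 ± 0.25 in Mpc1-KO, 9.22 ± 0.72 in UK5099 and 8.63 ± 0.49 in vehicle libraries (SD, n = 3 each), so that the groups overlapped. Ldhd, the mitochondrial enzyme that oxidises D-lactate, stood at 39.9, 38.3 and 39.7 CPM in Mpc1-KO, 48.4, 63.1 and 49.5 CPM in UK5099 and 32.2, 45.4 and 43.7 CPM in vehicle libraries. All UK5099 libraries were above all others, and vehicle library 1 was the lowest. Ldhd rose with UK5099 (log2 fold change 0.41 ± 0.14, adjusted p = 0.037) and was lower in Mpc1-KO than in UK5099 (-0.43, adjusted p = 0.026). The first call held in 8 of 19 alternatives and the second in 11 of 18. Each single Mpc1-KO library and UK5099 library 2 ended both calls when left out, and vehicle libraries 1 and 3 ended the first, as both other scalings of the libraries ended both (highest adjusted p 0.13).

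Lactate transport held the log2 fold change of largest size among the 36 genes in UK5099 with vehicle (Slc16a7) and in Mpc1-KO with UK5099 (Bsg). Slc16a1 (MCT1), the broadly expressed lactate carrier, was the only member that rose with deletion in the 9-library fit. It stood at 37.4, 34.5 and 39.8 CPM in Mpc1-KO, 26.1, 32.4 and 27.7 CPM in UK5099 and 23.2, 25.3 and 23.5 CPM in vehicle libraries. No 2 groups overlapped, with Mpc1-KO at the top and vehicle at the bottom. Its estimated log2 fold change was 0.62 ± 0.09 for Mpc1-KO with vehicle (adjusted p = 0.0050), 0.25 ± 0.09 for UK5099 with vehicle (adjusted p = 0.061, or adjusted p = 0.012 without UK5099 library 1) and 0.37 ± 0.09 for Mpc1-KO with UK5099 (adjusted p = 0.010). The first and the third call held in the 18 alternatives that keep the threshold of 0.05, with adjusted p of at most 0.036 and 0.0496, and at a threshold of 0.01 the third was lost.

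Slc16a3 (MCT4), the carrier of strongly glycolytic cells, did not pass in the 9-library fit. It stood at 346, 352 and 332 CPM in Mpc1-KO, 83.8, 375 and 265 CPM in UK5099 and 299, 377 and 371 CPM in vehicle libraries. UK5099 library 1 was far below every other library, and UK5099 library 2 was within the vehicle range. On the log2 scale the difference was -0.02 ± 0.42 for Mpc1-KO with vehicle (adjusted p = 0.99) and -0.77 ± 0.42 for UK5099 with vehicle (adjusted p = 0.18), or -0.14 without UK5099 library 1 (adjusted p = 0.42). The log2 ratio of Slc16a3 to Slc16a1 was 3.19, 3.33 and 3.04 in Mpc1-KO, 1.67, 3.51 and 3.23 in UK5099 and 3.66, 3.87 and 3.95 in vehicle libraries. Every Mpc1-KO and every UK5099 library was thus under every vehicle library in this ratio. Slc16a7 (MCT2), a carrier of high affinity, fell with UK5099 and stood at 4.66, 5.64 and 5.84 CPM in Mpc1-KO, 2.29, 2.02 and 2.91 CPM in UK5099 and 5.21, 8.76 and 7.36 CPM in vehicle libraries. UK5099 libraries were below all others, and Mpc1-KO overlapped vehicle. Its log2 fold change was -1.37 ± 0.20 for UK5099 with vehicle (adjusted p = 0.00041) and 1.02 ± 0.20 for Mpc1-KO with UK5099 (adjusted p = 0.0023), and both held in every alternative run (18 and 17).

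Both partner proteins of the carriers fell with UK5099. Bsg (basigin), which escorts MCT1 and MCT4 to the membrane, stood at 2708, 2672 and 2666 CPM in Mpc1-KO, 604, 1144 and 1219.8 CPM in UK5099 and 2030.5, 2475 and 2356 CPM in vehicle libraries. No 2 groups overlapped, and even the highest UK5099 library was far below the lowest vehicle library. The log2 fold change was -1.27 ± 0.22 for UK5099 with vehicle (adjusted p = 0.0013) and -0.95 without UK5099 library 1 (adjusted p = 2.2e-06), and the call held in all 19 alternatives. Bsg was higher in Mpc1-KO than in UK5099 by 1.505 ± 0.22 on the log2 scale (adjusted p = 0.00049), and differed from vehicle by 0.23 ± 0.22 (adjusted p = 0.53, or adjusted p = 0.019 in the 6-library fit). Emb (embigin), a relative of basigin that partners MCT2, stood at 8.84, 10.6 and 9.84 CPM in Mpc1-KO, 6.01, 5.44 and 5.03 CPM in UK5099 and 10.6, 10.3 and 10.8 CPM in vehicle libraries. UK5099 libraries were below all others, and Mpc1-KO overlapped vehicle. Its estimated log2 fold change was -0.89 ± 0.11 for UK5099 with vehicle (adjusted p = 0.00018) and 0.78 ± 0.11 for Mpc1-KO with UK5099 (adjusted p = 0.00044), in all 19 and 18 alternatives. Of the windows of Emb, 20.1% overlapped another gene, Gm17509.

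**Figure D4:**
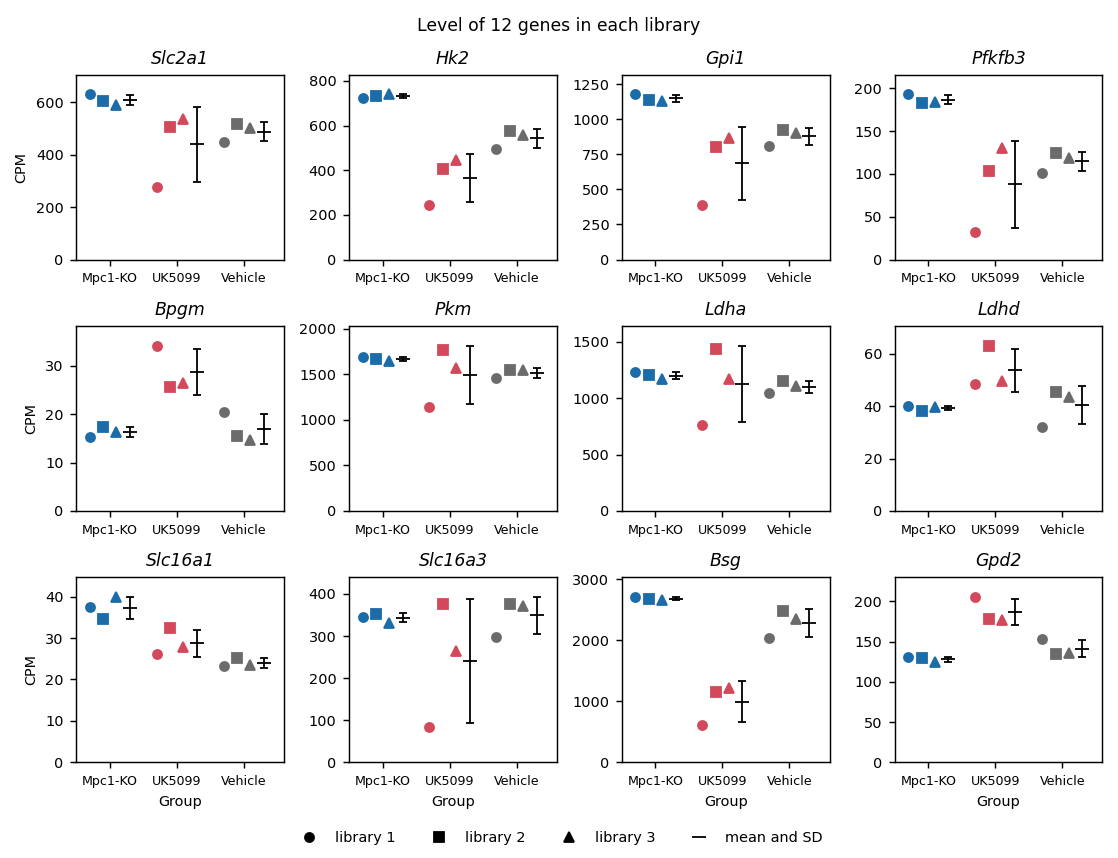
CPM of 12 genes in each library (axes start at 0), with Mpc1-KO, UK5099 and vehicle from left to right, symbols for library 1, 2 and 3, and black marks for the mean and SD of each group. For Bsg the UK5099 libraries lie between 604 and 1219.8 CPM, all under the vehicle libraries, and for Slc16a3, Pfkfb3 and Gpi1 UK5099 library 1 (circle) lies far under the other 2.

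The glycerol phosphate dehydrogenases, which pass electrons from cytosolic NADH to the respiratory chain or make glycerol 3-phosphate, moved in different directions. Gpd2, the mitochondrial enzyme of this shuttle, stood at 131, 129 and 125 CPM in Mpc1-KO, 206, 178 and 177 CPM in UK5099 and 153, 135 and 135 CPM in vehicle libraries. No 2 groups overlapped, with UK5099 at the top and Mpc1-KO at the bottom. Gpd2 rose with UK5099 (log2 fold change 0.40 ± 0.07, adjusted p = 0.0018) and was lower in Mpc1-KO than in UK5099 (-0.54 ± 0.07, adjusted p = 0.00031), in every alternative run (19 and 18). The difference between Mpc1-KO and vehicle was -0.14 (adjusted p = 0.26). Gpd1, its cytosolic partner, was low, at 3.34, 2.89 and 2.62 CPM in Mpc1-KO, 3.13, 1.79 and 0.788 CPM in UK5099 and 4.85, 3.69 and 3.26 CPM in vehicle libraries. UK5099 libraries were below vehicle without overlap, and library 3 was the lowest. Gpd1 fell with UK5099 (log2 fold change -0.99 ± 0.32, adjusted p = 0.033), a call held in 10 of 18 alternatives and lost without Mpc1-KO library 2, UK5099 library 2 or 3 or any vehicle library (highest adjusted p 0.10). For Mpc1-KO with UK5099 it was 0.64 (adjusted p = 0.13), or 1.00 without UK5099 library 1 (adjusted p = 0.0052). Gpd1l passed only without UK5099 library 1, where it was lower in UK5099 than in vehicle organoids (-0.51, adjusted p = 0.0026, against -0.26 with all libraries) and higher in Mpc1-KO than in UK5099 (0.57, adjusted p = 0.0012, against 0.33).

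The 6 genes under a mean of 1 CPM were not tested. Slc2a3 (GLUT3) reached 1.53 CPM in vehicle library 2, Eno2 (the neuronal enolase) 0.76 CPM in UK5099 library 2, Fbp1 (the liver fructose-1,6-bisphosphatase) 0.13 CPM in Mpc1-KO library 2, Hk3 0.061 CPM in UK5099 library 3, Pgam2 (the muscle phosphoglycerate mutase) 0.040 CPM in UK5099 library 1 and Hkdc1 0.036 CPM in vehicle library 2. A count of 3 reads, taken as the floor of detection, corresponds to 0.10 to 0.18 CPM depending on the library, so that Hk3, Pgam2 and Hkdc1 were not detected above that floor in any library. This limit covers counting error only.

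Among 23 other genes of glucose and lactate handling, 10 were tested, of which 1 was higher and 2 lower in Mpc1-KO than in vehicle organoids, and 3 were higher and 0 lower with UK5099. Shares over all genes tested were 5.64% and 5.03% for Mpc1-KO and 19.9% and 18.2% for UK5099. In the lists of other genes, numbers before an adjusted p are log2 fold changes. Slc5a1 (SGLT1), which brings in glucose with sodium, stood at 3.24, 2.36 and 3.13 CPM in Mpc1-KO, 6.25, 24.6 and 22.3 CPM in UK5099 and 1.86, 1.97 and 2.84 CPM in vehicle libraries. All UK5099 libraries were above all others, with library 1 the lowest of them, and Slc5a1 rose by a log2 fold change of 2.54 ± 0.42 (adjusted p = 0.0010). Slc2a9, a carrier of urate and sugars, rose too (1.05, adjusted p = 0.00035), as did the intracellular carrier Slc2a8 (0.54, adjusted p = 0.027). In Mpc1-KO organoids Slc2a4 (GLUT4, the insulin-responsive carrier) rose (0.44, adjusted p = 0.043), while Slc2a5 (the fructose carrier GLUT5) fell (-1.18, adjusted p = 0.025) and Tigar, a phosphatase acting on fructose 2,6-bisphosphate, fell (-0.78, adjusted p = 0.039). Mpc1-KO was higher than UK5099 for 2 and lower for 6 of these 10 genes, against 21.1% and 23.2% of all genes. Tigar stood at -1.15 (adjusted p = 0.0016) and G6pc3, a glucose-6-phosphatase of the endoplasmic reticulum, at 0.30 (adjusted p = 0.0046).

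Of 16 regulators of the pathway, 13 were tested. In Mpc1-KO organoids 4 were higher and 1 lower than in vehicle, against 5.64% and 5.03% of all genes. With UK5099 4 were higher and 4 lower, against 19.9% and 18.2% of all genes. Hif1a, the subunit of the hypoxia-inducible factor, stood at 225, 218 and 222 CPM in Mpc1-KO, 416, 315 and 311 CPM in UK5099 and 213, 189 and 187 CPM in vehicle libraries. UK5099 libraries were above all others, with library 1 the highest, and Hif1a rose with UK5099 (0.81 ± 0.10, adjusted p = 0.00021). Epas1 (HIF2α) went in different directions, at 254, 242 and 255 CPM in Mpc1-KO, 150.3, 153 and 173 CPM in UK5099 and 195, 189 and 194 CPM in vehicle libraries. No 2 groups overlapped for Epas1, which rose in Mpc1-KO (0.38, adjusted p = 0.0057), fell with UK5099 (-0.28, adjusted p = 0.0046) and was 0.66 higher in Mpc1-KO than in UK5099 (adjusted p = 3.1e-05). Vhl, which marks both factors for degradation, rose in Mpc1-KO (0.45, adjusted p = 0.022), as did Myc (0.43, adjusted p = 0.017) and its partner Max (0.27, adjusted p = 0.021). Arrdc4, a glucose-induced arrestin that limits glucose uptake, fell in Mpc1-KO (-0.53, adjusted p = 0.022) and with UK5099 (-1.44 ± 0.12, adjusted p = 1.4e-05), while the glucose sensor Mlxip fell (-0.24, adjusted p = 0.0027) and its partner Mlx rose (0.53, adjusted p = 0.0030). Between Mpc1-KO and UK5099, 5 of these genes were higher and 2 lower in Mpc1-KO, against 21.1% and 23.2% of all genes.

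Of 14 genes for pyruvate entry into mitochondria, 13 were tested. In Mpc1-KO organoids 1 was higher and 1 lower (Mpc1) than in vehicle, against 5.64% and 5.03% of all genes. With UK5099 5 were higher and 0 lower, against 19.9% and 18.2% of all genes (38.1% in either direction). Pcx, pyruvate carboxylase, which makes oxaloacetate from pyruvate in the matrix, stood at 43.7, 36.2 and 39.3 CPM in Mpc1-KO, 49.3, 90.1 and 95.2 CPM in UK5099 and 24.5, 29.0 and 29.4 CPM in vehicle libraries. No 2 groups overlapped, and Pcx rose with UK5099 (1.43 ± 0.21, adjusted p = 0.00052). Pdp2, a phosphatase that activates pyruvate dehydrogenase, rose with UK5099 (0.56, adjusted p = 0.00031) and in Mpc1-KO (0.34, adjusted p = 0.023). Pdp1, another such phosphatase (0.42, adjusted p = 0.018), and Pdk3, a kinase that inhibits the enzyme (0.44, adjusted p = 0.019), rose with UK5099 as well. Mpc1-KO was higher than UK5099 for 0 and lower for 4 of the 13 genes, against 21.1% and 23.2% of all genes. Among the 4 was Pdhx, a structural subunit of pyruvate dehydrogenase (-0.74, adjusted p = 0.010).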

How the data were processed

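RNA-seq libraries of 9 organoid samples (3 each of Mpc1-KO, UK5099 and vehicle) were read on an Illumina HiSeq3000 from stranded mRNA libraries, with 50-base single reads per the labels. The authors aligned reads with STAR 2.7.9a to GRCm39 and deposited CPM per gene with 0.0001 added, made in Partek Flow. They tested with DESeq2, which was not used here. The deposited CPM values were used as they stand after 0.0001 was subtracted, and an entry with a blank name, holding up to 0.000715% of the reads, was dropped. A spreadsheet had turned 24 symbols into dates, none of them a gene named here. Depth came from the CPM of 1 read, and 99.9% of values up to 1000 reads were then whole within 0.02 reads.

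The limma package (version 3.58.1, R 4.3.3) was run on log2(CPM + 0.5) for genes whose mean over libraries reached 1 CPM (moderated test with an intensity trend, two-sided, all 9 libraries in 1 fit, 6 residual degrees of freedom), with Benjamini-Hochberg adjustment over all genes tested. The threshold was an adjusted p below 0.05. Fold changes are on the log2(CPM + 0.5) scale and understate those of low genes. The test was also run on simulated data in which each gene had the same spread in all groups. Those data do not cover the unequal spread of the groups seen here, so no conclusion is drawn from them. The members and the other gene lists were chosen with earlier results of these data known. Values per library are given for members that passed in any comparison and for Slc2a1, Hk2, Pfkp, Pkm, Ldha, Ldhb, Slc16a1, Slc16a3 and Bsg, members under 1 CPM by their highest library, and from each other list up to 4 genes with the smallest p among those that passed in a comparison. Aldoa, Aldoc, Pgm1 and, among the regulators, Vhl for Mpc1-KO with vehicle and Epas1 for UK5099 with vehicle were named after their values were seen.

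UK5099 and vehicle libraries of the same number deviated together from their group means. Correlations over genes were 0.44, 0.14 and 0.31 for numbers 1, 2 and 3. Number 1 stood apart, since its libraries correlated negatively with those of the other numbers. Vehicle library 2, however, correlated better with UK5099 library 3 (0.26) than with UK5099 library 2. A pairing is thus not settled by the data, and the labels state none. With the replicate number as a block in the 9-library fit, 5 members were higher and 5 lower in UK5099 than in vehicle organoids, and these were the genes of the fit without it. Alternatives were 2 other pseudocounts, 2 other filters, 2 other scalings, no trend, a stricter threshold, the replicate block, 6 libraries only and each library left out. Promoters (RefSeq, GRCm38.p6) and transcript windows (GENCODE M21, GRCm38) are of another build than the reads and were used for sequence only.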

Additional observations from a re-analysis of the deposited data

How the results depend on the processing

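The edgeR and DESeq2 alternatives were not run, since the deposited values are CPM and not counts. Slc16a1 was the only member higher in Mpc1-KO than in vehicle organoids in most alternatives, with 13 higher in the fit of 6 libraries only and 1 to 10 when 1 library was left out, and 0 lower in each. For UK5099 with vehicle, 5 members were higher and 5 lower with all libraries, and leaving out 1 library gave 3 to 11 higher and 3 to 8 lower. Fewer were higher with TMM scaling (3), with 6 libraries only (3) and at an adjusted p below 0.01 (2), and fewer were lower with a mean of at least 5 CPM (3), 6 libraries only (3) and an adjusted p below 0.01 (3). For Mpc1-KO with UK5099, leaving out 1 library gave 5 to 16 higher and 3 to 6 lower, an adjusted p below 0.01 gave 4 higher and 2 lower, while both a filter at a mean of 5 CPM and the lack of any filter gave 3 lower. Same-numbered libraries all deviated together only for UK5099 with vehicle, and there vehicle library 2 correlated best with UK5099 library 3. The replicate block gave 14 higher for Mpc1-KO with UK5099, where same-numbered libraries did not deviate together (correlations -0.12, -0.08 and 0.12) and not every library correlated best with its own number, and 1 higher and 0 lower for Mpc1-KO with vehicle (correlations -0.04, -0.02 and 0.09). Blocked and with 6 libraries only, a fit chosen after seeing the data, UK5099 with vehicle gave 4 higher and 5 lower. Ldha in UK5099 with vehicle turned to a log2 fold change of 0.24 without UK5099 library 1, and ranged down to -0.22 when another library was left out. Without Bsg and Pkm, chosen as the members with the highest CPM, the mean summed level was 8838 CPM in Mpc1-KO and 7648 CPM in vehicle libraries. Of 1134 values of 21 members over these alternatives, 1036 stayed on the same side of the threshold, 67 lost the call and 30 gained it. In 1 the sign turned while at least 1 of the fits compared had passed. Turns of sign where neither fit passed are counted among the 1036. Over all genes, 1323 passed for Mpc1-KO with vehicle, against 4399 with 6 libraries only, 3594 without UK5099 library 1, 1999 without UK5099 library 3, 761 with no filter and 310 to 596 without any 1 Mpc1-KO or vehicle library. For UK5099 with vehicle 4721 genes passed, against 3432 to 5673 when 1 library was left out. For Mpc1-KO with UK5099 5498 passed, against 4008 to 6194. The spread that decides these counts rests on 6 residual degrees of freedom. Members near 1 CPM rest on few reads, and a fold change there is limited by depth.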

Other observations

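Genes of 3 neighbouring routes, which belong to no comparison above, had more calls with UK5099 than in Mpc1-KO. The same held for all genes tested (38.1% against 10.7% in either direction). Of 10 tested genes of the pentose phosphate pathway, which makes NADPH and ribose from glucose 6-phosphate, 1 was higher and 1 lower in Mpc1-KO than in vehicle organoids. With UK5099 4 were higher and 2 lower, against 19.9% and 18.2% of all genes, while the shares in Mpc1-KO were 5.64% and 5.03%. G6pdx, the first enzyme of the pathway, stood at 119.9, 115 and 116 CPM in Mpc1-KO, 283, 213 and 204 CPM in UK5099 and 112, 86.8 and 93.8 CPM in vehicle libraries, and it rose with UK5099 (log2 fold change 1.24 ± 0.13, adjusted p = 4.7e-05 by limma). Pgd, the next NADPH-forming enzyme (0.89, adjusted p = 2.0e-05), and Taldo1, transaldolase (0.54, adjusted p = 3.2e-05), rose too, while H6pd, the form in the endoplasmic reticulum, fell (-0.91, adjusted p = 7.3e-06). In Mpc1-KO organoids Taldo1 rose (0.29, adjusted p = 0.0095) and H6pd fell (-0.44, adjusted p = 0.0056).

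Of 13 tested genes of glycogen metabolism, 1 was higher and 0 lower in Mpc1-KO than in vehicle organoids, and 1 was higher and 5 lower with UK5099. Stbd1, which tethers glycogen to membranes (-0.92, adjusted p = 0.0024), Gyg, the glycogen primer (-0.63, adjusted p = 0.0039), and Pygm, the muscle glycogen phosphorylase (-1.01, adjusted p = 0.0076), fell with UK5099, and Ugp2, which makes UDP-glucose, rose in Mpc1-KO (0.21, adjusted p = 0.036). Of the 7 genes of the malate-aspartate shuttle, the other carrier of electrons from cytosolic NADH, 0 were higher and 0 lower in Mpc1-KO than in vehicle organoids, and 4 were higher and 0 lower with UK5099. These were Slc25a12, the aspartate-glutamate carrier (1.30, adjusted p = 0.00018), Got2 (0.61, adjusted p = 0.00015), Mdh1 (0.37, adjusted p = 0.0089) and Mdh2 (0.38, adjusted p = 0.0062), the aminotransferase and dehydrogenases of the shuttle. At an unadjusted p below 0.05, 2 of these 7 genes were called in Mpc1-KO with vehicle, against 27.5% of all genes. Over all genes tested, 5.64% were higher and 5.03% lower in Mpc1-KO, and 19.9% were higher and 18.2% lower with UK5099.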
